A study of Mus musculus with 24 samples.

Results

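In mouse bone marrow-derived macrophages, 525 of 16536 distal regions of open chromatin (3.17%) were opened by lipopolysaccharide (LPS) under both exposure schedules of the study. A region was the union of overlapping ATAC-seq peaks from 22 libraries, each limited to its 11000 highest-scoring peaks, and 29802 regions resulted. Distal regions lay more than 1 kb from every annotated transcription start site (TSS). The members were chosen as the distal regions detected in at least 5 of 8 libraries given LPS once, at least 5 of 7 given LPS on 2 occasions and at most 1 of 7 kept in media. Because detection in media and LPS libraries chose them, every comparison of media with LPS below is a description and carries no test.

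The cells were macrophages derived over 7 days of culture from marrow of male mice aged 28 days, taken from 4 C57BL6/J animals (numbered 1, 4, 6 and 7 in the labels) and 4 BTBR T+ Itpr3tf/J animals (BTBR, numbered 2, 3, 5 and 8). Each replicate number of the labels was taken as 1 animal, with a library for each of 3 treatments. The media group received no LPS, the LPSx1 group 100 ng/ml LPS for the last 24 h, and the LPSx2 group 100 ng/ml for 4 h, a wash, about 20 h without LPS and then the same last 24 h. ATAC-seq uses the transposase Tn5 to cut and tag accessible DNA, and each peak of a deposited list marks a short window where such cuts were concentrated.

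As background, distal regions of open chromatin in macrophages are often enhancers, stretches of DNA whose bound transcription factors raise the activity of a gene at a distance. The lineage factors PU.1 and C/EBP hold many of them open in resting cells, and LPS, sensed by Tlr4, brings in signal-dependent factors of the NF-kB, AP-1 (Fos and Jun dimers) and interferon regulatory families. Some regions are closed until such a stimulus arrives, and these have been studied as a possible basis of an altered response to a later stimulus.

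The windows below are the highest-scoring peak of 11 members, given from the GRCm38.p6 (mm10) reference, plus strand, 5′ to 3′. Capitals mark matches to the AP-1 motif (TGACTCA or its reverse complement TGAGTCA) and to the octamer ATGCAAAT (reverse complement ATTTGCAT), the element bound by POU-domain factors such as those encoded by Pou2f1 and Pou2f2. The first 3 were among the members most widely and strongly detected with LPS, and the fourth holds a pair of AP-1 matches near Klf6.
Sox5 region, chr6:144902687-144902887: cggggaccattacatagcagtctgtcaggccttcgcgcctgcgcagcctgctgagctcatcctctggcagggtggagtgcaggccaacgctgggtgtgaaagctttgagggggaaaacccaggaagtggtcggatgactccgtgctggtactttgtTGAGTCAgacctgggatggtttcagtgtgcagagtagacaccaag
Tgds region, chr14:118109814-118110014: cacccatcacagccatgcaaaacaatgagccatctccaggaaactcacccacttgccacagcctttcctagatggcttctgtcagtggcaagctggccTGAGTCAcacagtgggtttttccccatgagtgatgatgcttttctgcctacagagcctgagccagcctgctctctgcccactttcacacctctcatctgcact
Prrc2c region, chr1:162773766-162773966: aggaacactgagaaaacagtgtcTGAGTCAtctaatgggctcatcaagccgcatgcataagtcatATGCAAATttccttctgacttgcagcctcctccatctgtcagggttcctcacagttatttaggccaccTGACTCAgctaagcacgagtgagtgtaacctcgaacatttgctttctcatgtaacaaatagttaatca
Klf6 region, chr13:5837514-5837714: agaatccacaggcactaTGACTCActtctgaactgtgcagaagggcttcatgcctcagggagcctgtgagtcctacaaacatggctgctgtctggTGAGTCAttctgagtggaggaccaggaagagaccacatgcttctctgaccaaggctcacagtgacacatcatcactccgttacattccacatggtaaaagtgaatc

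The next 5 windows hold the octamer, which the text returns to, and all but the first lie near a gene of the lists of LPS biology described below.
Epha7 region, chr4:28967757-28967957: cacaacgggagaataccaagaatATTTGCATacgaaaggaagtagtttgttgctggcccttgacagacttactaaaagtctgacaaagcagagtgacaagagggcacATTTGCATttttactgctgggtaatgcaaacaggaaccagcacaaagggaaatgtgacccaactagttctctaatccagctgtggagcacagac
Il12b region, chr11:44390138-44390338: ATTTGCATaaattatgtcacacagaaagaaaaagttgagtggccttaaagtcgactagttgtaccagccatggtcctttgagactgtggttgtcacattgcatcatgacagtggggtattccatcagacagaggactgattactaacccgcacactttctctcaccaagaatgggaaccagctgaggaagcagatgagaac
Tnip1 region, chr11:54936205-54936405: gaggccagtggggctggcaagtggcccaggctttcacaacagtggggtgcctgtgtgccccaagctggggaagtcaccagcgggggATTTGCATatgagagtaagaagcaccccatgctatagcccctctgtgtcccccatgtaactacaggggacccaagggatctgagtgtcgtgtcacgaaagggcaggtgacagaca
Ifih1 region, chr2:62635398-62635598: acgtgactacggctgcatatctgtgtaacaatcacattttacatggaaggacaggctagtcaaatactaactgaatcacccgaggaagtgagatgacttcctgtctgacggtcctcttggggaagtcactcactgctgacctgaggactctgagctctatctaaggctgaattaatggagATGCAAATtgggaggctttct
Adora2a region, chr10:75326650-75326850: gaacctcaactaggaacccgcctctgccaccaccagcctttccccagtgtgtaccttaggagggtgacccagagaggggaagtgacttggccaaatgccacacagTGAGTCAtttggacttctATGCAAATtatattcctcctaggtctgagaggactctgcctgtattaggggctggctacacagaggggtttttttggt

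The last 2 windows hold neither element: 1 of the 3 members near Pde4b, and the member with the largest difference between the strains.
Pde4b region, chr4:102584755-102584955: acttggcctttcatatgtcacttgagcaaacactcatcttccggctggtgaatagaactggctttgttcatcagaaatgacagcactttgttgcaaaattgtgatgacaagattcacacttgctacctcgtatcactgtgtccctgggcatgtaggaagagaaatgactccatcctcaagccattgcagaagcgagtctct
Ercc6l2 region, chr13:63700868-63701068: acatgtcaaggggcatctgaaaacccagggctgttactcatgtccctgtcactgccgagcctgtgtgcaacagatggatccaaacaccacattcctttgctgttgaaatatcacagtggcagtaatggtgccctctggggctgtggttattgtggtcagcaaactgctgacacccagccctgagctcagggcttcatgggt

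Reads per library are not given, and the sign of depth used here is the length of the lists, 11349 to 127242 peaks in the 22 kept ones once overlapping peaks were collapsed. The labels also give PCR cycles, 6 to 8 in the kept libraries of animals 1 to 4 and 10 to 13 in those of animals 5 to 8. The other 2 lists, C57BL6/J animal 6 in media and LPSx2, held 299 and 1877 peaks and took no part in the choice. Of 10 macrophage marker genes, 2 to 9 had a TSS peak in each kept library. No B cell, stromal or erythroid marker had one, and of the T and NK cell, neutrophil and dendritic cell markers at most 2 per list did.

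In the 7 media libraries the members were nearly absent from the top 11000 peaks, and with LPS most were there. C57BL6/J animals 1, 4 and 7 held 18, 13 and 2 of the 525 members in media, and BTBR animals 2, 3, 5 and 8 held 58, 40, 6 and 15. With LPSx1, C57BL6/J animals 1, 4, 6 and 7 held 473, 466, 431 and 486 and BTBR animals 2, 3, 5 and 8 held 447, 440, 354 and 309. With LPSx2, C57BL6/J animals 1, 4 and 7 held 505, 502 and 480, and BTBR animals 2, 3, 5 and 8 held 403, 399, 391 and 402. The media and LPS libraries did not overlap, as the choice of members fixed, while the C57BL6/J counts with LPSx2 were all above those of BTBR.

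**Figure D1:**
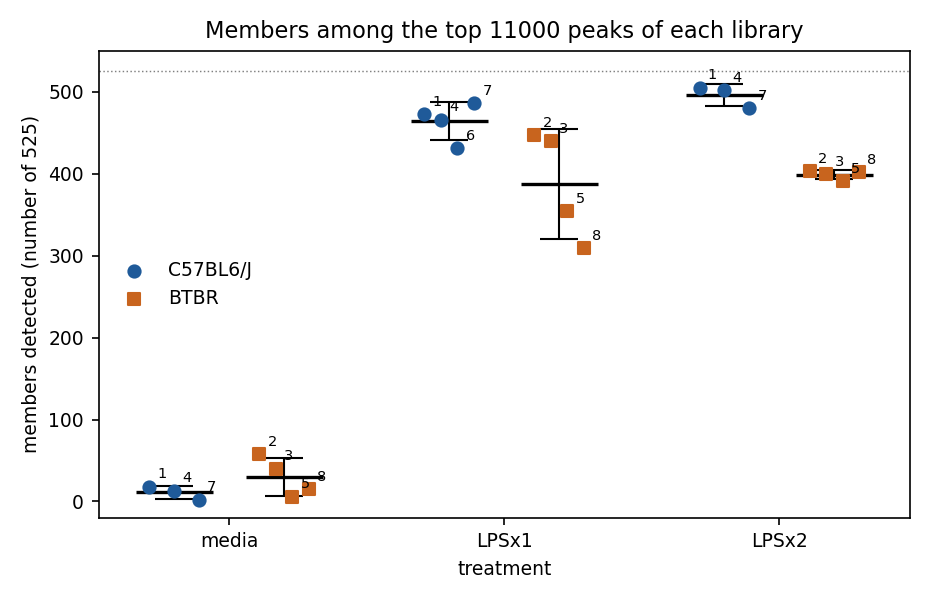
Number of the 525 members among the top 11000 peaks of each library (y axis) by treatment (x axis). Points are libraries numbered by animal, circles C57BL6/J and squares BTBR; horizontal lines are group means, error bars the SD and the dotted line all 525. Media libraries hold 2 to 58 members and LPS libraries 309 to 505.

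How many members had a weaker peak in media depended on the library. When the media lists were read to their full length, 487 members (92.8%) had a peak in at least 1 of the 7 media lists, 269 (51.2%) in at least 4 and 38 (7.24%) in none. The share found in a whole media list ran from 4.38% in C57BL6/J animal 1, whose list held 11349 peaks, to 92.4% in BTBR animal 2, whose list held 63125. Per media library the mean was 47.8% ± 30.7 (SD, n = 7), and in 4 of the 7, all 3 of C57BL6/J among them, most members had no peak. The word opened therefore stands here for a rise into the strongest peaks of a library, and whether from a weaker peak or from none cannot be said apart from the length of the list.

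Within the LPS libraries the members were of middle strength. The rank percentile used here is 100 for the strongest peak of a library, falls evenly to 0 at the limit of 11000 peaks, and is set to 0 where a region has no peak within that limit. Where detected with LPS, a member had a median rank percentile of 47.8 (quartiles 38.6 and 56.6). The 2002 distal regions that met the same LPS counts but were also in 2 or more media libraries had a median of 56.8, and the 389 distal regions present in all 22 libraries had 75.9.

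By the counts that defined them, 373 members were in no media library and 152 in 1. All 15 LPS libraries held 68 members, 42 of which were in no media library, and 74 members had the minimum of 10. Just outside the rule, 188 distal regions met the LPS counts with 2 media libraries, 97 missed by having 4 LPSx1 libraries and 194 by having 4 LPSx2 libraries.

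Members were then chosen again without 1 animal at a time, and their detection was read in the libraries of that animal, which had no part in the choice. They were found in 78.4% ± 13.2 (SD, n = 8) of cases in the LPSx1 libraries left out and in 79.5% ± 11.8 (SD, n = 7) in LPSx2, against 11.5% ± 8.36 (SD, n = 7) in media. Single animals ran from 54.5% to 90.1% with LPSx1, from 68.3% to 94.4% with LPSx2 and from 3.30% to 27.4% in media, so the media and LPS libraries did not overlap. Other distal regions were found in 15.1% to 36.2% of cases over the 3 treatments. The 8 sets of members overlap, so no test was made over animals.

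**Figure D2:**
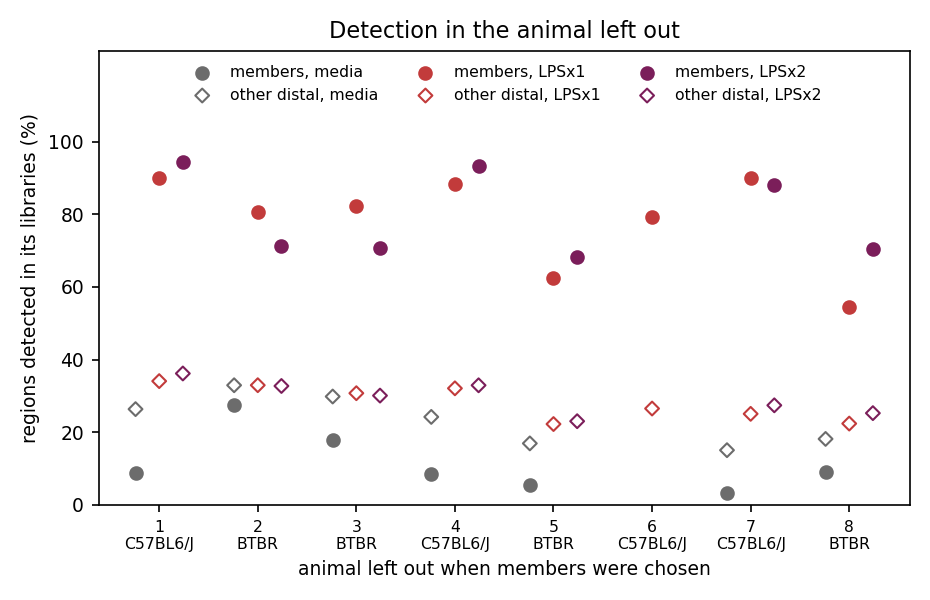
Percent of regions detected (y axis) in the libraries of the animal that was left out when members were chosen (x axis). Filled circles are members, open diamonds other distal regions, and colours the treatments; no error is shown because each point is 1 library. Members sit at 54.5% or more with LPS and at 27.4% or less in media.

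The short LPSx2 list of C57BL6/J animal 6 never entered the choice, and among its 1877 peaks 38 members were hit. The top 1877 peaks of the 8 LPSx1 lists hit 18 to 60 members, those of the 7 LPSx2 lists 16 to 66 and those of the 7 kept media lists 0 each. All of these other lists took part in the choice, which set their counts, so they give a scale and no independent contrast. The 299 peaks of the short media list of the same animal hit none, which shows nothing, since the top 299 of each LPS list hit only 0 or 1.

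Members were ordered by the number of LPS libraries, then by the fewest media libraries, then by mean rank percentile with LPS. The first lay 121 kb upstream of Sox5, which encodes an SRY-related transcription factor, in an intergenic stretch (chr6:144902647-144902923). Its rank percentile was 92.4, 95.9, 95.8 and 94.7 with LPSx1 in C57BL6/J animals 1, 4, 6 and 7, and 80.4, 95.1, 94.1 and 97.3 in BTBR animals 2, 3, 5 and 8. With LPSx2 it was 92.6, 89.6 and 91.9 in C57BL6/J animals 1, 4 and 7, and 76.9, 91.1, 96.1 and 95.0 in BTBR animals 2, 3, 5 and 8. It stood at 76.9 or more in every LPS library and within the limit of no media library, with BTBR animal 2 lowest under both schedules.

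The next members by the same order were, by nearest TSS, those near Tgds, Fam20a, Tent5a, Rab12, Prrc2c, Arl15, Epha7, Itga9 and Clca2, with mean rank percentiles over the 15 LPS libraries from 87.6 down to 74.3. All 9 were in every LPS library and in no media library. Rab12 encodes a small GTPase of vesicle traffic and Itga9 an integrin subunit, and both of those members lay in introns of these genes. The Fam20a member, 4.20 kb downstream of the TSS in an intron, stood at 93.0, 92.0 and 86.0 with LPSx1 in BTBR animals 2, 3 and 5 but at 38.4 in BTBR animal 8, which held 93.9 with LPSx2.

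Members were mostly intronic. Introns held 324 of them (61.7%), intergenic sequence 167 (31.8%), exons 22 (4.19%) and untranslated regions 12 (2.29%), while introns held 52.5% and intergenic sequence 40.7% of the other 16011 distal regions. The median distance to any TSS was 11077 bp, against 9707 bp for the other distal regions. Chromosome 3 held the largest share, with 55 of its 974 distal regions (5.65%) being members, and chromosome 19 the smallest among autosomes, with 7 of 440 (1.59%). No member lay among the 159 distal regions of the X chromosome and none on the Y. On the X, 16 distal regions (10.1%) met the LPS counts, against 15.4% on autosomes, and all 16 were in 2 or more media libraries.

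A few members lay close together. Within 50 kb of another member were 59 of the 525 (11.2%), in 29 groups. The largest group held 3 members within 12098 bp near Commd8 (chr5:72250209-72262306), which encodes a protein of the COMM-domain family. Commd8, Pde4b, Kif16b and Cmip were each the nearest protein-coding gene within 100 kb of 3 members, and 32 genes had 2 or more. Kif16b encodes a kinesin that moves endosomes, and Cmip a protein named for inducing c-Maf.

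Motif content was not used in the choice. The AP-1 motif was present in 238 members (45.3%) and in 23.8% of the other distal regions. It was in 32.1% of the distal regions present in every library, in 31.4% of those open with LPS and in 2 or more media libraries, and in 14.3% of the 182 distal regions closed by both schedules (in at least 5 media libraries and at most 1 library of each LPS schedule). A pair or more of matches was found in 45 members (8.57%) and in 2.90% of the other distal regions. Regions are not replicates, so these shares are given without a test.

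The NF-kB consensus was in 39 members (7.43%) and in 4.43% of the other distal regions. The C/EBP motif (TTGCNNAA) was in 18.1% against 16.4%, close to the background. The PU.1 motif (GAGGAAGT) was in 9.33% against 12.3%, and the composite element of PU.1 with interferon regulatory factors (EICE) in 2.10% against 5.92%. The interferon-stimulated response element was in 2.10% against 3.67%, and the CTCF motif in 1 member (0.190%) against 2.10%. The SP/KLF motif was in 4 members (0.762%) against 2.74%. The low CTCF share was no mark of the members, since the motif was in 0.450% of the distal regions open with LPS and in 2 or more media libraries and in 0.257% of those present in every library. In those same sets PU.1 was in 15.5% and 17.99%, EICE in 6.59% and 4.88%, SP/KLF in 3.90% and 7.46% and NF-kB in 3.80% and 3.60%. The members were thus richer than these sets and the other distal regions in AP-1 and NF-kB matches and poorer in those of PU.1, EICE and SP/KLF. None of AP-1, octamer, NF-kB, C/EBP and PU.1 matched in 166 members (31.6%), against 50.7% of the other distal regions. Base composition did not set the members apart, with a median GC content of 48.8% in both sets, and repeats covered 8.36% of their windows on average against 11.8%.

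**Figure D3:**
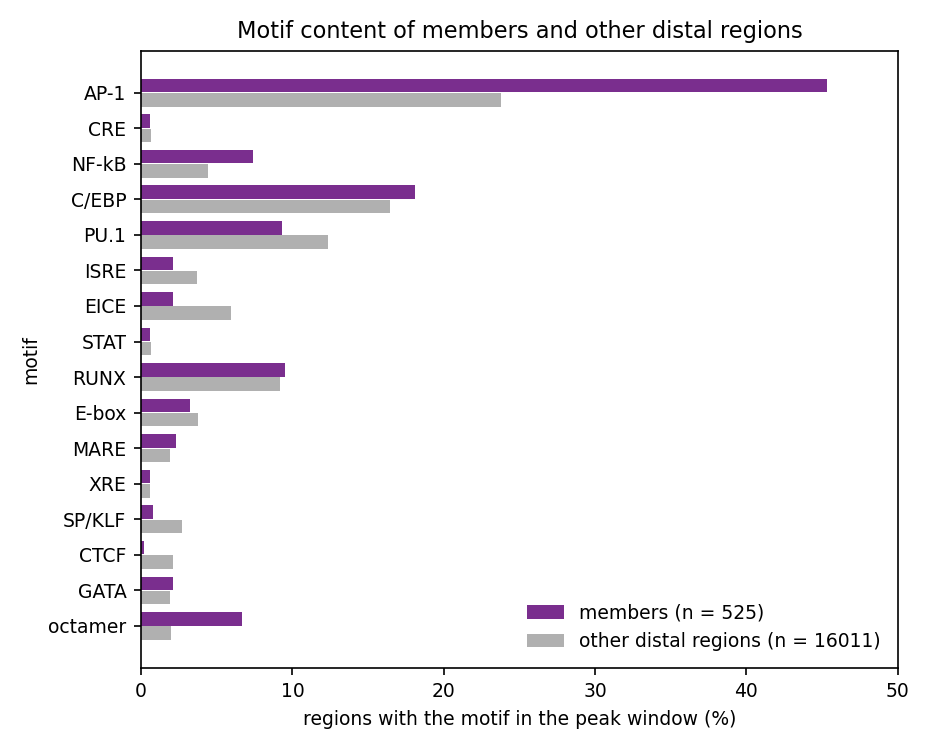
Percent of regions whose peak window holds each of 16 motifs (x axis), with a bar for the 525 members and a bar for the 16011 other distal regions. AP-1 stands at 45.3% against 23.8%, and the octamer at 6.67% against 1.99%.

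A count of 8-letter words, made after the motif shares were known, added the octamer. Of 2028 words present in 10 or more members, the 8 with the largest excess over other distal regions shared at least 6 letters with the AP-1 motif, and the ninth was ATGCAAAT. It was in 35 members (6.67%) and in 1.99% of the other distal regions, a 3.36-fold higher share. It was in 1.03% of distal regions present in every library, in 2.10% of those open with LPS and in 2 or more media libraries, and in 0 of the 182 closed by both schedules. Among members, 27 of 287 without an AP-1 match held the octamer (9.41%), against 8 of 238 with one (3.36%). Because the word was picked for its excess, these values describe it and support nothing.

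AP-1 was more common in members detected more widely with LPS, and the octamer was most common in those found in all 15 LPS libraries. Other distal regions were not split in this way. AP-1 was in 39.2% of the 74 members found in 10 LPS libraries, in 42.7% of the 218 in 11 or 12, in 46.1% of the 165 in 13 or 14 and in 58.8% of the 68 in all 15. The octamer was in 4.05%, 6.42%, 6.06% and 11.8% of the same sets, which is 3, 14, 10 and 8 members, with no steady rise. AP-1 matches gathered at the middle of the window, with 47.0% of 285 matches within 25 bp of the centre, where an even spread would put 26.2%. The other distal regions showed the same central excess (45.7%). Of the 38 octamer matches, 28.9% were within 25 bp of the centre.

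**Figure D4:**
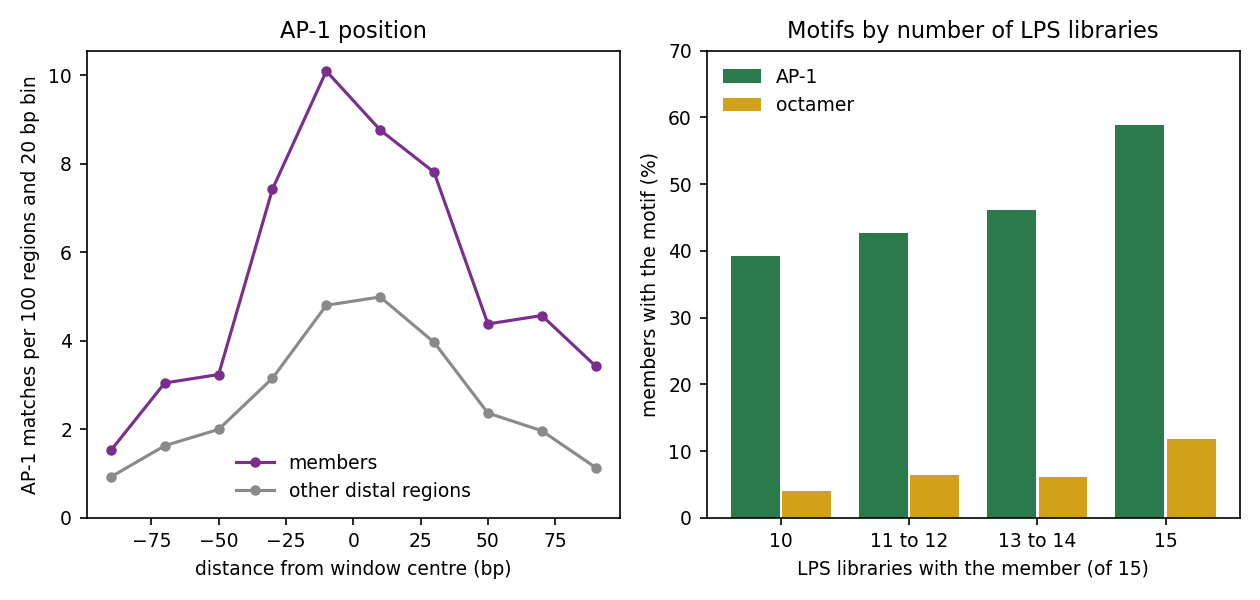
Left, AP-1 matches per 100 regions in 20 bp bins (y axis) by distance from the window centre in bp (x axis) for members and other distal regions. Right, percent of members with AP-1 or the octamer (y axis) by the number of LPS libraries that detected them (x axis), rising for AP-1 from 39.2% at 10 to 58.8% at 15.

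Of the 525 members, 454 lay within 100 kb of a protein-coding TSS, with 418 different nearest genes (1.91% of 21924). The TSS of these genes was mostly in the same state under every treatment. A TSS peak was present in most libraries of each treatment at 147 of the 418 genes (35.2%) and in no library at 122 (29.2%). By the counts used to choose the members, TSS peaks were gained at Gde1 and Slc9a9 and lost at Fbxo36 and Usp3. These counts are given for the 418 genes alone, so they mark no trait of them. Per library, a mean of 50.4% of the 418 genes had a TSS peak in media, 45.4% with LPSx1 and 44.9% with LPSx2. Over all 21924 protein-coding genes the means were 30.7%, 25.8% and 24.3%, a fall in the same direction.

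Gene lists of LPS biology were read against that background of 1.91%, with the caution that they were drawn up with earlier results of these data known. These lists were also rich in distal regions of any kind: other distal regions were nearest to 40.7% to 92.9% of their genes, depending on the list, against 28.5% of all protein-coding genes, so the 1.91% is a low mark for them. Of 15 genes of prostaglandin and cyclic AMP signalling, 5 (33.3%) had members: Adora2a, Pde4b, Pde4d, Ptger2 and Ptges, while 11 of the 15 (73.3%) had other distal regions. Of 20 lineage factors, 4 did (Bhlhe40, Klf6, Maf and Zeb2), as did 3 of 27 interferon-stimulated genes (Gbp5, Ifih1 and Parp14), 3 of 26 genes of metabolism and redox (Glrx, Slc2a1 and Slc7a11), 2 of 20 AP-1 and CREB/ATF genes (Bach1 and Bach2), 2 of 16 SOCS, STAT and TGF-beta genes (Ltbp1 and Smad7) and 2 of 14 chromatin genes (Ncoa7 and Tet2). Single genes came from the lists of inflammatory cytokines (Il12b, 1 of 24), NF-kB feedback (Tnip1, 1 of 23), LPS sensing (Tlr4, 1 of 19), surface receptors (Tnfrsf1b, 1 of 33) and MAPK phosphatases with mRNA decay (Dusp10, 1 of 13). None of 24 chemokine genes, 15 housekeeping genes or 10 macrophage markers was nearest to a member. In lists this short, having none is near the background of 1.91%, so it is not read as a trait of the members. The chemokine and cytokine lists were not short of other distal regions, which 17 of 24 genes had in each.

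The LPS receptor gene itself had a member, inside the Tlr4 gene 63.4 kb downstream of the TSS, found in 6 LPSx1 and 6 LPSx2 libraries. Its rank percentile over the 7 C57BL6/J LPS libraries averaged 44.7 ± 26.5 (SD) and over the 8 BTBR ones 37.1 ± 29.7 (SD).

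Il12b encodes the p40 subunit shared by the cytokines IL-12 and IL-23. Its member lay 9.72 kb upstream of the TSS (chr11:44390067-44390346), held the octamer, NF-kB and C/EBP matches, and had no peak in any whole media list. The rank percentile with LPSx1 was 37.3, 37.8, 63.9 and 44.8 in C57BL6/J animals 1, 4, 6 and 7, and 0, 0, 77.2 and 26.0 in BTBR animals 2, 3, 5 and 8. Under LPSx2 the values were 37.0, 11.6 and 87.7 in C57BL6/J animals 1, 4 and 7, and 0, 0, 55.3 and 18.1 in BTBR animals 2, 3, 5 and 8. All 7 C57BL6/J LPS libraries held the region, while BTBR animals 2 and 3 lacked it under both schedules and BTBR animals 5 and 8 held it.

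Tnip1 encodes a ubiquitin-binding inhibitor of NF-kB signalling, and its member lay in an intron, 14.99 kb from the TSS. The rank percentile with LPSx1 was 87.0, 44.6, 9.30 and 0 in C57BL6/J animals 1, 4, 6 and 7, and 44.5, 2.15, 0 and 0 in BTBR animals 2, 3, 5 and 8. With LPSx2 it was 85.0, 86.9 and 28.8 in C57BL6/J animals 1, 4 and 7, and 71.0, 78.8, 0 and 0 in BTBR animals 2, 3, 5 and 8. Over both schedules, animals 1 to 4, sequenced on lanes 1 and 2, ran from 2.15 to 87.0 and animals 5 to 8, on lanes 3 and 4, from 0 to 28.8. The PCR cycles split these animals in the same way, and the part of the lane or of the cycles in this member was not tested. It was also present in 5 of the 7 whole media lists.

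Ifih1 encodes MDA5, a cytosolic sensor of double-stranded RNA. Its member, in an intron 3.87 kb downstream of the TSS, had rank percentiles of 73.3, 80.5, 40.5 and 71.4 with LPSx1 in C57BL6/J animals 1, 4, 6 and 7, and 19.8, 79.1, 0 and 0 in BTBR animals 2, 3, 5 and 8. With LPSx2 the values were 48.9, 67.4 and 61.9 in C57BL6/J animals 1, 4 and 7, and 30.2, 8.38, 0 and 0 in BTBR animals 2, 3, 5 and 8. BTBR animals 5 and 8 lacked the region under both schedules, and BTBR animal 3 overlapped the C57BL6/J values under LPSx1. The other members near interferon-stimulated genes were 15.3 kb upstream of Gbp5, a guanylate-binding protein, and 27.1 kb from the TSS of Parp14, an ADP-ribosyltransferase.

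Members near cyclic AMP genes included the receptors that raise it and the enzymes that break it down. Adora2a encodes an adenosine receptor that raises cyclic AMP, and its intronic member, 1.71 kb from the TSS, held AP-1 and octamer matches close together. Its rank percentile was 81.5, 58.6, 47.4 and 43.3 with LPSx1 in C57BL6/J animals 1, 4, 6 and 7, and 37.3, 41.8, 0 and 44.6 in BTBR animals 2, 3, 5 and 8. Under LPSx2 the values were 78.4, 55.3 and 47.2 in C57BL6/J animals 1, 4 and 7, and 52.6, 76.6, 48.4 and 65.7 in BTBR animals 2, 3, 5 and 8. Thus 14 of 15 LPS libraries held it, and the strains overlapped under both schedules. The Ptger2 member, 52.5 kb from the TSS of this prostaglandin E2 receptor, was in 7 LPSx1 and 6 LPSx2 libraries, and the Ptges member, 2.22 kb from the TSS of the prostaglandin E synthase gene, in 5 and 5.

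Pde4b encodes a phosphodiesterase that degrades cyclic AMP, and it had 3 members, 44.7 kb downstream, 2.53 kb upstream and 18.3 kb downstream of its nearest annotated starts. The member 2.53 kb upstream, printed above, held 3 C/EBP matches and had no peak in any whole media list. Its rank percentile was 90.3, 81.6, 25.4 and 62.2 with LPSx1 in C57BL6/J animals 1, 4, 6 and 7, and 65.8, 73.2, 49.9 and 0 in BTBR animals 2, 3, 5 and 8. With LPSx2 it was 88.2, 79.2 and 80.3 in C57BL6/J animals 1, 4 and 7, and 55.9, 67.2, 82.0 and 0 in BTBR animals 2, 3, 5 and 8. BTBR animal 8 lacked it under both schedules, and the other BTBR values overlapped those of C57BL6/J. Pde4d, a related phosphodiesterase gene, had 2 members, each in 7 LPSx1, 5 LPSx2 and 1 media library.

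Among the lineage factors, Klf6, a zinc finger factor induced in activated macrophages, had a member 23.8 kb upstream (chr13:5837413-5837724) that was in all 15 LPS libraries and in the media library of BTBR animal 5 at a percentile of 5.53. The rank percentile with LPSx1 was 37.0, 71.0, 23.2 and 36.9 in C57BL6/J animals 1, 4, 6 and 7, and 61.4, 81.7, 44.8 and 38.1 in BTBR animals 2, 3, 5 and 8. Under LPSx2 the values were 78.2, 72.0 and 28.7 in C57BL6/J animals 1, 4 and 7, and 67.1, 67.9, 63.4 and 52.6 in BTBR animals 2, 3, 5 and 8. The strains overlapped under both schedules. Near Maf, which encodes the c-Maf factor, were members 34.8 kb and 63.2 kb upstream, with 1 and 2 AP-1 matches. Zeb2, a zinc finger factor of myeloid identity, had members 40.9 kb and 20.3 kb downstream of their nearest annotated Zeb2 starts, which differ. Bhlhe40, a helix-loop-helix repressor, had 1 member 55.8 kb downstream.

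Near the AP-1 family, Bach2 had 2 members, 58.7 kb and 50.9 kb upstream of their nearest annotated Bach2 starts, which differ, and Bach1 had 1. The proteins are repressors that bind AP-1-like sites, and all 3 of these members held an AP-1 match. Near genes of metabolism, the member of Slc7a11, the cystine transporter, was in all 15 LPS libraries, with rank percentiles from 29.9 to 82.9. Those of Slc2a1, the glucose transporter GLUT1, and Glrx, glutaredoxin, were in 14 each. Tnfrsf1b, the gene of TNF receptor 2, had 2 members, the nearer one 7.57 kb upstream with an octamer and in all 15 LPS libraries.

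The rule did not compare the LPS schedules, but it required members to be frequent under both, which limits how far the schedules can differ in them. A low count of members called between schedules was therefore partly set by the choice. In limma across all 13183 regions found in 5 or more LPS libraries, no region passed an adjusted p of 0.05 for LPSx2 minus LPSx1 (0% called), and 0 of the 525 members did. All members entered this fit because the rule placed each in at least 10 LPS libraries. The lowest adjusted p of a member was 0.644. At an unadjusted p under 0.05 there were 42 members (8.00%) and 933 of all regions (7.08%), so the members stood near the background. The median difference of the members was 2.29 points of rank percentile, against a median of -0.46 over all regions. Its direction turned with the settings, to -1.74 with lists as deposited, -2.13 with no list left out, -0.50 with whole lists and -0.04 without animal 8. The median standard error of 1 member was 9.87 points, so differences of a few points could not be seen. The p missing the threshold does not show that the schedules act alike.

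The rule did not name the strain, but its counts were not neutral to it. The media limit drew on 3 C57BL6/J and 4 BTBR lists, and a member could meet the LPS counts largely through 1 strain. In all 7 C57BL6/J LPS libraries but 3 or fewer of the 8 BTBR ones were 19 members. In all 8 BTBR but 3 or fewer of the 7 C57BL6/J ones was 1 member. How far the choice shaped the strain differences below was not tested. In C57BL6/J, 91.0% ± 4.76 (SD, n = 7 LPS libraries) of the members were detected, and in BTBR 74.9% ± 8.49 (SD, n = 8). On each of the 4 sequencing lanes, which held 1 animal of each strain, the C57BL6/J library held more members than the BTBR library of the same schedule, in all 7 pairs that could be formed. Distal regions as a whole made up 49.2% ± 6.13 (SD, n = 7) of the detected regions in C57BL6/J and 44.6% ± 6.22 (SD, n = 8) in BTBR, and their part in the difference was not tested. This share was also higher in the C57BL6/J library in all 7 pairs, though by little on lane 4 with LPSx2 (44.5% against 44.2%). The order of the pairs was thus not particular to the members. In media the order was the other way on the 3 lanes with both strains, where the BTBR library held more members and also a larger share of distal regions.

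In limma with the lane as a covariate and the animal as a random effect, 68 members (13.0%) were lower in BTBR and 5 (0.952%) were higher at an adjusted p of 0.05. Over all 13183 regions 4.74% were lower and 2.03% higher, and over the 5747 other distal regions tested 7.13% and 1.97%. Among the 2002 distal regions open with LPS and in 2 or more media libraries, 8.09% were lower and 1.30% higher. The median difference was -12.3 points for the members, -4.02 for other distal regions, -8.87 for those 2002 regions and -0.29 over all regions. The median of the members, chosen again each time, was -5.15 with whole lists, -7.54 with no list left out and -8.08 with lists as deposited. At the settings used here the members therefore followed, with a larger median, a direction that other distal regions also showed. The part of the choice of members in that larger median was not tested.

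These strain calls were not stable. With any 1 animal left out, which left 303 to 452 members when they were chosen again, 17, 38, 27, 10, 29, 43, 35 and 48 were lower without animals 1 to 8 in turn. The lowest count, without animal 4, was 3.23% of the members against 2.21% of all regions, and the highest, without animal 8, was 12.0% against 6.04%. Between 0 and 2 members were higher, and without animal 7 these were 0.660% of the members against 5.20% of all regions. Without the lane as a covariate 1 was lower and 0 were higher (0.379% and 0.228% of all regions). With detection scored as 1 or 0 no member was called, while 2.56% of all regions were lower and 1.17% higher. With lists of full length no member was called either, and of all regions 1 was lower and 8 were higher. In the main fit the correlation within animals was 0.0727. With so low a correlation, 2 libraries of the same animal counted almost as separate animals.

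**Figure D5:**
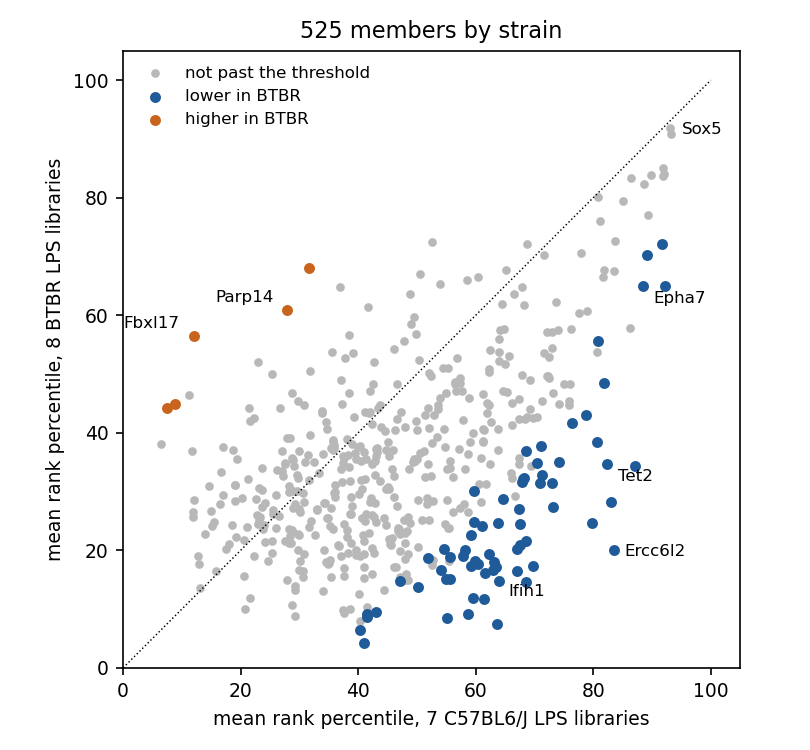
Mean rank percentile of each of the 525 members over the 7 C57BL6/J LPS libraries (x axis) and over the 8 BTBR LPS libraries (y axis), with the dotted line at equal values. Blue points are the 68 members lower in BTBR and orange points the 5 higher in BTBR in limma, grey points the rest; the named points are labelled by their nearest gene, and no error bars are drawn.

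The member with the largest difference lay in an intron of a noncoding gene, 114 kb upstream of Ercc6l2 (chr13:63700836-63701076). Its rank percentile with LPSx1 was 67.6, 84.6, 86.0 and 82.0 in C57BL6/J animals 1, 4, 6 and 7, and 0, 0, 32.6 and 0 in BTBR animals 2, 3, 5 and 8. With LPSx2 it was 91.5, 84.3 and 88.3 in C57BL6/J animals 1, 4 and 7, and 0, 0, 67.9 and 59.97 in BTBR animals 2, 3, 5 and 8. The strains did not overlap under either schedule, and BTBR animals 2 and 3 lacked the region under both. In limma the difference was -67.4 ± 10.2 points (SE, adjusted p = 0.00024), and it was the only named region still called without the lane covariate (adjusted p = 0.045). Its LPS detections stood at the minimum of the rule under both schedules, met through every C57BL6/J LPS library and few BTBR ones. How far that choice shaped the difference was not tested.

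Next in size were members near Adgrl4 (an adhesion receptor gene), Chrm3 (a muscarinic receptor gene), Rab30, Lpin1, Slc1a2 (a glutamate transporter gene), Sema3c, Aig1, Arrdc4 and Usp25, with differences from -58.6 to -50.1 points and adjusted p-values in limma from 0.00062 to 0.0099. The Lpin1 member lay 29.3 kb downstream of the TSS of this phosphatidate phosphatase gene. With LPSx1 it stood at 85.9, 47.6, 86.5 and 48.1 in C57BL6/J animals 1, 4, 6 and 7, and at 40.1, 0, 0 and 0 in BTBR animals 2, 3, 5 and 8. With LPSx2 it stood at 55.3, 77.0 and 79.6 in C57BL6/J animals 1, 4 and 7, and at 48.8, 0, 28.4 and 0 in BTBR animals 2, 3, 5 and 8. Every C57BL6/J LPS value was above the BTBR values of the same schedule. The Lpin1 member also stood at the minimum of the rule under both schedules, met through every C57BL6/J LPS library and few BTBR ones.

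Of the members near genes of the lists, 4 passed the strain test in limma, a count not read as a trait of these genes. Over all members 13.0% were lower in BTBR and 0.952% higher, and over all 13183 regions 4.74% and 2.03%. A member 81.3 kb upstream of Tet2, which encodes a methylcytosine dioxygenase, differed by -50.0 ± 10.3 points (SE, adjusted p = 0.0050) although it was in all 15 LPS libraries, with 68.9 to 96.4 in C57BL6/J and 2.62 to 69.2 in BTBR. The Ifih1 member differed by -42.3 ± 10.6 (SE, adjusted p = 0.020) and the Pde4b member 18.3 kb downstream by -34.8 ± 9.87 (SE, adjusted p = 0.036). The Parp14 member was higher in BTBR, by 40.7 ± 10.6 (SE, adjusted p = 0.023). Of 19 alternative settings, the call was kept in 14 for this Tet2 member, 11 for Ifih1, 7 for this Pde4b member and 7 for Parp14. The Il12b member differed by -29.3 ± 10.0 (SE, adjusted p = 0.082), past no threshold, as did the second Tet2 member with -36.8 ± 11.5 (SE, adjusted p = 0.056).

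The 5 members higher in BTBR were near Fbxl17, Parp14, Otoa, Itpkb (an inositol trisphosphate kinase gene) and Cldn5. Fbxl17 encodes an F-box protein, and its intronic member stood at 0, 0, 0 and 10.1 with LPSx1 in C57BL6/J animals 1, 4, 6 and 7 and at 46.6, 55.8, 74.1 and 68.3 in BTBR animals 2, 3, 5 and 8. With LPSx2 it stood at 39.7, 0 and 34.6 in C57BL6/J animals 1, 4 and 7 and at 58.9, 50.2, 38.0 and 59.5 in BTBR animals 2, 3, 5 and 8. The strains did not overlap under LPSx1 and overlapped under LPSx2 through BTBR animal 5. The difference in limma was 43.0 ± 9.36 points (SE, adjusted p = 0.0081). Under LPSx1 its detections stood at the minimum of the rule, met through every BTBR library and C57BL6/J animal 7. The part of the choice in this difference was not tested.

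In motif content, the 68 members lower in BTBR held AP-1 in 36.8%, the octamer in 10.3%, C/EBP in 33.8% and NF-kB in 0 of 68, against 45.3%, 6.67%, 18.1% and 7.43% of all members. The sets were defined by the same calls that varied with the settings, so the shares are descriptive. The letters are those of the reference genome, which is of the C57BL6/J strain, and BTBR letters were not read. Peaks of both strains were called on that reference, and its part in the strain differences was not tested. Of the 10 members first in the order that began with Sox5, Arl15 (-28.9 points, adjusted p = 0.015) and Epha7 (-22.4 points, adjusted p = 0.019) were lower in BTBR in limma. Both were detected in every LPS library.

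Whether the difference between schedules differed between strains was tested as an interaction. In limma no region passed (0% called) and 0 of the 525 members did. At an unadjusted p under 0.05 there were 31 members (5.90%) and 540 of all regions (4.10%). The median standard error of the interaction was 19.7 points for a member, so the design could resolve only large differences of this kind.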

How the data were processed

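The 24 ATAC-seq libraries are deposited as 1 peak list each. Peaks were called by the authors with HOMER on mm10, per the submitters' processing notes, where Trimmomatic 0.38, Picard 2.18.4, SAMtools 1.8 and bedtools are listed too; the aligner is not given in the sources used here. The authors' deposited score of a peak has no stated scale and was read only for the order of peaks inside its own list. Read numbers are not given, so no interval that needs them was computed.

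Overlapping peaks of a list were collapsed to the best-scoring one (7 lists held most peaks in overlapping copies), lists under 5000 peaks were left out, the top 11000 peaks were kept and regions were merged at 1 bp overlap. TSSs came from GENCODE M21 and sequences from RefSeq GRCm38.p6, which is of the C57BL6/J strain. Motifs were searched as exact letters on both strands: AP-1 (TGACTCA and its reverse complement TGAGTCA), CRE (TGACGTCA), C/EBP (TTGCNNAA), PU.1 (GAGGAAGT), STAT (TTCCNGGAA), the octamer (ATGCAAAT) and, by name, NF-kB, ISRE, EICE, RUNX, E-box, MARE, XRE, SP/KLF, CTCF and GATA. The MARE holds an AP-1-like core, so the 2 can overlap, as can EICE and PU.1. Genes are the nearest protein-coding TSS within 100 kb unless a longer distance is printed. A gene can have several annotated starts, and each distance runs to the nearest of them.

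Rank percentiles of the 15 LPS libraries were modelled with limma 3.58.1 (robust, with trend; R 4.3.3) over 4 groups of strain by schedule, with the lane as covariate and Benjamini-Hochberg adjustment over 13183 regions found in 5 or more LPS libraries. The strain fit added the animal as random effect (statmod 1.5.0). The scripts were tested on simulated data. Python 3.11.15, numpy 2.4.6, pandas 2.3.3, scipy 1.17.1, the data.table package (1.17.8) and matplotlib 3.10.9 were used.

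The labels give the same replicate number to the 3 libraries of an animal. Deviations of LPSx1 and LPSx2 from their group means correlated within each of 7 animals (0.285 to 0.671), so the numbers were taken to pair the libraries, although in animals 3, 4 and 8 another animal of the strain correlated slightly more (0.512 against 0.443, 0.287 against 0.285 and 0.494 against 0.483). The members, the gene lists and the motifs were chosen with earlier results of these data known. Regions named in the text are the 10 found in the most LPS libraries, the members nearest to listed genes or to the genes with most members, and up to 10 per direction in each fit by size; regions with the octamer were named after their values were seen.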

Additional observations from a re-analysis of the deposited data

Results flagged for a closer look

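Among the 1877 peaks of the LPSx2 list of C57BL6/J animal 6, which took no part in the choice of members, 38 members were found. The top 1877 peaks of each kept media list held 0, a count that the choice of members set, since those lists took part in it.

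In the libraries of animals left out of the choice, C57BL6/J animal 6 detected 79.2% of the members with LPSx1, apart from the other C57BL6/J animals at 88.4%, 90.1% and 90.1%.

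Single libraries stood apart within groups of 4 at several regions printed above, all by rank percentile with LPSx1 unless stated. The Fam20a region was at 38.4 in BTBR animal 8, against 86.0 to 93.0 in the other BTBR animals. The Tnip1 region was at 44.5 in BTBR animal 2, against 0 to 2.15. The Ercc6l2 region was at 32.6 in BTBR animal 5 and the Lpin1 region at 40.1 in BTBR animal 2, each against 0 in the other BTBR animals. The Fbxl17 region was at 10.1 in C57BL6/J animal 7, against 0 in the other C57BL6/J animals. The Adora2a region was at 0 in BTBR animal 5, against 37.3 to 44.6, and the Tet2 region 81.3 kb upstream was at 96.3 in C57BL6/J animal 1, against 68.9 to 71.9. In media, the Klf6 region was at 5.53 in BTBR animal 5, against 0 in the other BTBR animals. By Dixon's criterion these made 9 of 74 groups examined, where chance gives about 1 in 20, and groups in which 3 values are 0 pass it whenever the fourth is not.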

How the results depend on the processing

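The number of members followed the list length and the counts required: 204 with the top 5500 peaks, 1532 with whole lists, 262 when 6 or more libraries of each schedule were required and 303 to 452 with 1 animal left out, where the same share of libraries, rounded up, is a stricter count. The other alternatives gave 373 to 646. The AP-1 share was 39.1% with whole lists, 49.7% over the whole merged region and 33.9% in the central part of the window alone (50 bp trimmed at each end), where the change of window itself alters the letters searched, and 43.0% to 47.7% otherwise. The octamer share, recounted as an addition made after seeing the data, ran from 3.43% in the central part of the window alone and 4.64% without the 7 lists of overlapping peaks to 8.82%.

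No member was called for LPSx2 minus LPSx1 or for the interaction under any alternative, and the fit with the animal as a replicate block also gave 0 for both, with 36 members at an unadjusted p under 0.05 for the schedules. The count of members lower in BTBR (share of all regions in parentheses) was 19 with the top 5500 peaks (3.65%), 17 with lists as deposited (1.44%), 20 with no list left out (1.99%), 40 without the filter on detection (1.52%), 1 without the lane covariate (0.379%), 0 with whole lists (0.0025%) and 0 with detection scored as 1 or 0 (2.56%). It rose to 91 without the 7 lists of overlapping peaks (8.18%), 94 with media libraries in the fit (6.60%) and 84 with no random effect (5.79%), and was 10 to 48 with 1 animal left out (2.21% to 6.58%). The count higher in BTBR was 0 with the top 5500 peaks (1.46%), 0 with whole lists (0.020%), 0 with detection scored as 1 or 0 (1.17%), 0 without the lane covariate (0.228%), 2 with lists as deposited (1.31%), 3 without the filter (0.535%), 19 without the 7 lists of overlapping peaks (4.32%) and 0 to 2 with 1 animal left out (0.772% to 5.20%). The cause was not tested. None of the 25 named regions with a strain call reversed in any alternative, and none kept its call in every one. The unknown read depth limits all of these values: a region outside the top 11000 peaks may still be open.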

Other observations

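Other members with the octamer lay near genes of immune signalling, named here after their values were seen. A member in an intron of Syk, a tyrosine kinase of immune receptor signalling, 3.39 kb downstream of the TSS, was in 6 LPSx1 and 6 LPSx2 libraries. A member in an intron of Lyn, a Src-family kinase, 30.4 kb downstream, was in 6 and 6 and had no peak in any whole media list. A member 65.8 kb upstream of Tnfsf4, which encodes OX40 ligand, was in 7 and 5. None of the 3 was called between strains in limma (adjusted p = 0.43 for Syk, 0.93 for Lyn and 0.14 for Tnfsf4). A member in an intron of Fer, a tyrosine kinase gene, held 2 octamers and was lower in BTBR by -49.3 ± 9.13 points (SE, adjusted p = 0.0020).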
